A study of Mus musculus with 3 samples.

Results

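The immunoglobulin V segment genes were followed in the B cells and plasma cells of mouse sciatic nerves. Members are all gene names of the count table that start with Ighv, Igkv or Iglv, which gave 159 of 17168 genes: 71 heavy-chain (Ighv), 85 kappa (Igkv) and 3 lambda (Iglv) genes. The choice used names alone. All 3 libraries hold the CD45+ fraction, the leukocytes, of sciatic nerves, with the genotype NOD.AIRE GW/+, an age of 15 weeks and no treatment labelled. NOD is an inbred mouse strain prone to autoimmunity, and Aire is a thymic regulator of self-antigen display. The labels do not say how many mice gave each library. All samples share this genotype and no wild-type sample was used, so no value here measures an effect of genotype. Library 3 was sequenced from the 5′ end of the transcript and libraries 1 and 2 from the 3′ end. With 1 library of the 5′ kind, chemistry and library cannot be told apart, so 5′ and 3′ values are set side by side with no test.

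An immunoglobulin heavy or light chain is encoded by a V segment that a developing B cell joins to short D and J segments, or to J alone in light chains, ahead of a constant gene. Each B cell normally keeps 1 productive heavy and 1 productive light chain, kappa or lambda, so its V segments mark the cell and its descendants. Plasma cells are the antibody-secreting descendants of B cells and devote much of their RNA to these transcripts. The V segment lies near the 5′ end of the mRNA and the constant gene at its 3′ end.

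Library 3 held 3274 cells and 13791264 UMIs (unique molecular identifiers, each counting 1 captured RNA molecule), library 1 held 6033 cells and 22587246 UMIs, and library 2 held 2333 cells and 11398628 UMIs. Cell classes are those the authors assigned. Plasma cells numbered 35, 7 and 12 in libraries 3, 1 and 2, and B cells 415, 1446 and 89. The class names matched the sums of their markers, though not every marker. The summed level of 8 plasma markers (such as Jchain, Mzb1 and Xbp1) was 546, 266 and 403 UMIs per 10000 in plasma cells of libraries 3, 1 and 2, against 8.37, 6.34 and 11.4 in B cells. Jchain gave most of the plasma cell sums, at 484, 191 and 314. Mzb1 and Xbp1 were also higher in plasma cells in each library. Irf4, another of the 8, was lower in plasma cells in each library (0.871, 0.909 and 0.0370, against 1.53, 1.29 and 0.752). Prdm1 was lower in library 3 (0.0911 against 0.174) and higher in libraries 1 and 2. Conversely, 8 B cell markers (such as Cd79a, Ms4a1 and Pax5) summed to 7.73, 5.75 and 7.07 per 10000 in plasma cells, against 63.1, 45.8 and 40.2 in B cells. T cell markers were present in B cells of library 3 at 8.24 per 10000, all 6 above 0, and their part in the values below was not tested. Of 11634 cell barcodes, 6 occurred in more than 1 library.

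The heavy V genes lie on chromosome 12 (chr12:113572927-115953005), the kappa V genes on chromosome 6 (chr6:67555497-70704177) and the lambda V genes on chromosome 16 (chr16:19085017-19260859), all in mm10 (GRCm38) coordinates of GENCODE M21. Of these genes, 2 Ighv and 11 Igkv are annotated as pseudogenes. The coding sequences below are those of the V genes that led the plasma cells, each given as the last 290 coding bases of its annotated transcript, 5′ to 3′ on the coding strand, inside the V exon. Capitals mark bases that differ from the most similar other V gene of the table: Ighv8-8 for Ighv8-12 (chr12:115647945-115648234, minus strand, 274 of 290 bases identical), Igkv3-3 for Igkv3-4 (chr6:70672088-70672377, plus strand, 271 identical), Ighv5-6 for Ighv5-4 (chr12:113597446-113597735, minus strand, 277 identical), Igkv8-30 for Igkv8-24 (chr6:70216858-70217147, minus strand, 268 identical) and Iglv2 for Iglv1 (chr16:19085017-19085306, minus strand, 283 identical).
Ighv8-12: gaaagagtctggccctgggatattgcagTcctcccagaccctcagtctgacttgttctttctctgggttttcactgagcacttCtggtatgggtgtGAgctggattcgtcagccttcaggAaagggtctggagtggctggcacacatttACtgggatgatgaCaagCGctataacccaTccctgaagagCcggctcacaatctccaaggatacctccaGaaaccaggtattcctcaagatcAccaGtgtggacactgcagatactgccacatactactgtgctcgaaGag
Igkv3-4: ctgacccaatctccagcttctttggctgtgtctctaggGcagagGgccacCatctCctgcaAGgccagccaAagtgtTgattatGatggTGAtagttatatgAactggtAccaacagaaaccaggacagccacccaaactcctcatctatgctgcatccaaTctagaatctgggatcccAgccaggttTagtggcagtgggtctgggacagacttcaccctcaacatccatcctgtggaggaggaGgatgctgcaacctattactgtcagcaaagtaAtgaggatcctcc
Ighv5-4: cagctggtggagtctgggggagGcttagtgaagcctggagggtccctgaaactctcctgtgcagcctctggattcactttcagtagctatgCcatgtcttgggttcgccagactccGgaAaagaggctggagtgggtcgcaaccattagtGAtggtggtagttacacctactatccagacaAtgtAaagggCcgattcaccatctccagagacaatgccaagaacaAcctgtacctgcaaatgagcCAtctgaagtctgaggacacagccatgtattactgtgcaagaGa
Igkv8-24: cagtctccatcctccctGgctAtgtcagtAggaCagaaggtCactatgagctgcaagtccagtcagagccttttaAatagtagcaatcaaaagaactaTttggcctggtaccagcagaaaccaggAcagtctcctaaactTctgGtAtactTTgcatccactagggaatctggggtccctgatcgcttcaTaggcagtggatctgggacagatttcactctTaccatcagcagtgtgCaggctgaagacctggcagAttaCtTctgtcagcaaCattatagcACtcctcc
Iglv1: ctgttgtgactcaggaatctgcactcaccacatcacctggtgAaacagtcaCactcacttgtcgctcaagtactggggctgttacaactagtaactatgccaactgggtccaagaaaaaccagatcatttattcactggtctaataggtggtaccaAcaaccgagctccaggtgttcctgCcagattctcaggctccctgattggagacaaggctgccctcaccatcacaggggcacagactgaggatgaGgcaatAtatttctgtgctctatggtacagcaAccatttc

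V genes resemble each other closely, and this bounds how finely they can be told apart. The median identity of a V gene to its nearest relative over these 290 bases was 93.1% for Ighv, 94.5% for Igkv and 97.6% for Iglv genes, and 27 of 71 Ighv and 34 of 85 Igkv genes had a relative above 95%. The sequences are those of the reference genome and not of NOD alleles, and how the counting treated reads that match several V genes is not given in the sources used here. Junction sequences were not read here, so cells that share V genes are not shown to be 1 clone.

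V segment RNA was far more abundant in plasma cells than in B cells in every library, and far more abundant in the 5′ library than in the 3′ libraries. In plasma cells, V segments made 6092 UMIs per 10000 in library 3, which is 60.9% of all UMIs of these cells, 73.8 in library 1 and 64.0 in library 2. In B cells the same values were 88.8, 0.964 and 0.146 per 10000. Plasma cells thus exceeded B cells 68.6-fold in library 3, 76.6-fold in library 1 and 438-fold in library 2, the last against 7 V UMIs in all B cells of that library. The difference was higher in plasma cells in 3 of 3 libraries. An exact sign-flip test over libraries gave a two-sided p of 0.25, the smallest it can give with 3 libraries. V segments take most of the UMIs of library 3 plasma cells, which leaves a smaller part of the UMIs for all other genes together.

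**Figure D1:**
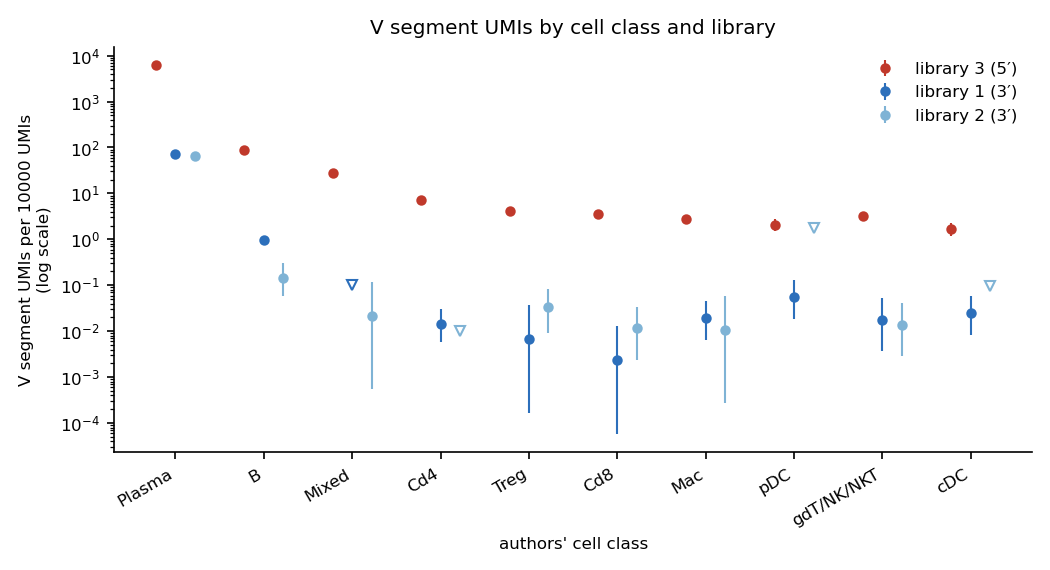
V segment UMIs per 10000 UMIs (log axis) for each of the authors' cell classes, plasma and B cells at the left, with 1 point for each library. Bars are exact 95% Poisson intervals, which cover counting error only, and open triangles mark classes with 0 V UMIs at the level that 3 UMIs would give. The points of library 3 lie above those of libraries 1 and 2 in each class, and plasma cells lie above all other classes in each library.

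Library 3 differed from libraries 1 and 2 in V segments far more than in constant genes, but the constant genes differed as well. Igkc had 247 UMIs per 10000 in plasma cells of library 3, against 3125 and 3817 in libraries 1 and 2. In B cells it had 15.4, against 52.1 and 79.6. The kappa ratios below thus combine more V UMIs with fewer Igkc UMIs in library 3. For the kappa chain, plasma cells of library 3 had 16.2 V UMIs for each UMI of the constant gene Igkc, against 0.00753 in library 1 and 0.00582 in library 2. In B cells the ratio was 3.82 in library 3, against 0.00849 in library 1 and 0.000787 in library 2. Heavy V UMIs per heavy constant UMI were 8.49 in plasma cells of library 3, against 0.0254 and 0.0101 in libraries 1 and 2, and 2.70 in B cells of library 3, against 0.0192 and 0.00237. Lambda stood apart in plasma cells: Iglv UMIs per Iglc UMI were 3.75 in library 3, against 0.443 and 0.684 in libraries 1 and 2, so the 3′ libraries held Iglv at a far higher ratio than Igkv or Ighv. However, 93 and 151 of the 159 V genes were listed at 0 in libraries 1 and 2, whereas Iglv1 and Iglv3 were above 0 in both. How far this listing lowers the Igkv and Ighv ratios was not tested. These are ratios of UMIs with no correction for length.

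**Figure D2:**
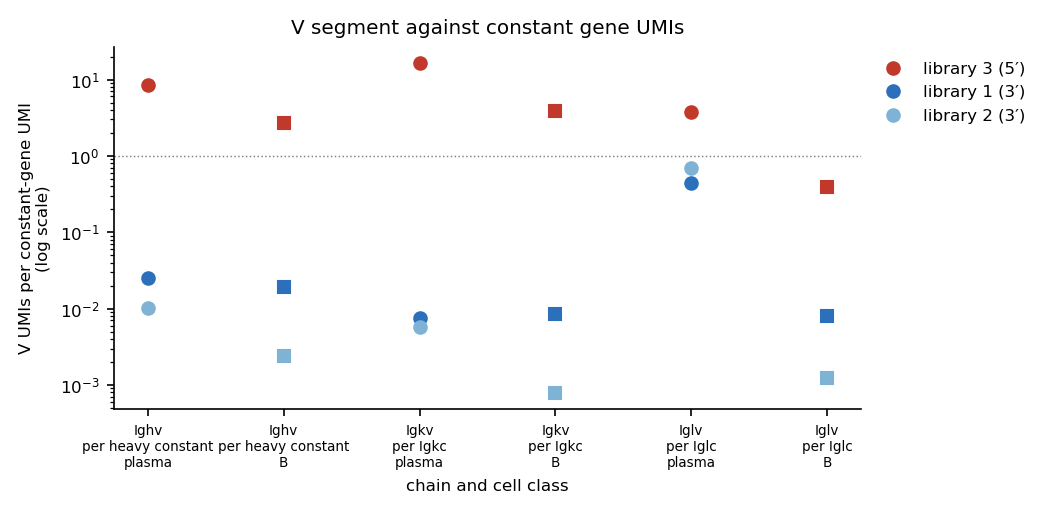
V segment UMIs per UMI of the constant genes of the same chain (log axis) in plasma cells (circles) and B cells (squares), with 1 point for each library. The dotted line marks a ratio of 1. Library 3 lies above libraries 1 and 2 for each chain and class, and the lambda ratios of plasma cells in libraries 1 and 2 are the highest values of the 3′ libraries.

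More V genes were seen in the 5′ library. Library 3 held UMIs of 157 of the 159 members, library 1 of 66 and library 2 of 8. Library 3 alone held 91 members, and 6 were seen in all 3 libraries. Ighv5-16 and Ighv1-49 were listed at 0 in library 3. Ighv5-16 nevertheless led 3 of the 24 heavy V calls in library 1 B cells. Members seen in only 1 or 2 cells of a library numbered 20 of 157 in library 3, 2 of 66 in library 1 and 1 of 8 in library 2. A V gene seen in few cells may be listed at 0 in a library, and whether the authors applied such a filter is not given in the sources used here.

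The plasma cells of each library were led by few V genes, and these differed between libraries. In library 3, the heavy V gene with the most UMIs was Ighv8-12 (chr12:115647945-115648387) in 26 of 35 plasma cells. It gave 137038 UMIs, 69.8% of all heavy V UMIs of the class. The leading kappa V gene was Igkv3-4 (chr6:70671788-70672377) in 20 of these cells, with 279570 UMIs, 69.0% of the light-chain V UMIs. Both genes were listed at 0 in libraries 1 and 2, in plasma cells and in every other class. The sequences of these 2 genes are printed above because they gave most of the V UMIs of the plasma cells of library 3.

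The pair Ighv8-12 with Igkv3-4 led 20 of 35 plasma cells of library 3, a share of 57.1% (exact Clopper-Pearson 95% interval 39.4 to 73.7%, counting error only). In these 20 cells, Ighv8-12 ranged from 1096 to 12950 UMIs with a median of 4759.5, and Igkv3-4 from 3626 to 28269 with a median of 11961.5. V segments made 41.4 to 83.0% of all UMIs of a cell, with a median of 68.2%. At least 99.9% of the heavy V UMIs of each of these cells came from Ighv8-12. The leading heavy constant gene, which sets the antibody class, was Ighg2b in 11 of them, Ighg2c in 5 and Igha, the constant gene of IgA, in 4. This V pair was thus found with constant genes of both IgG and IgA.

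In another 6 plasma cells of library 3, Ighv8-12 went with Igkv6-13 as the leading kappa gene. This gene was singled out after its values were seen, since no single kappa gene reached 60% of the kappa V UMIs in these cells. Ighv8-12 gave 1102 to 5975 UMIs in them and Igkv6-13 gave 1298 to 3810. Ighg2b led 4 of these cells and Igha led 2. The kappa V UMIs were divided over 4 related genes in nearly the same proportion in every cell. Igkv6-13 had a median of 58.1% (range 56.1 to 59.0%), Igkv6-15 had 25.4% (23.7 to 26.3%), Igkv6-23 had 8.67% (8.15 to 10.3%) and Igkv6-14 had 6.89% (5.11 to 8.67%). Over the 290 bases printed next, Igkv6-13 shares 276 with Igkv6-15, 279 with Igkv6-23 and 271 with Igkv6-14. Counts of these 4 genes are therefore uncertain singly, and whether the reads of 1 rearranged gene were divided among them was not tested. Capitals mark the 30 positions at which not all 4 genes have the same base, and all 4 lie on the minus strand of chromosome 6 (Igkv6-13 at chr6:70457501-70457790, Igkv6-15 at chr6:70406469-70406758, Igkv6-23 at chr6:70260409-70260698 and Igkv6-14 at chr6:70434952-70435241).
Igkv6-13: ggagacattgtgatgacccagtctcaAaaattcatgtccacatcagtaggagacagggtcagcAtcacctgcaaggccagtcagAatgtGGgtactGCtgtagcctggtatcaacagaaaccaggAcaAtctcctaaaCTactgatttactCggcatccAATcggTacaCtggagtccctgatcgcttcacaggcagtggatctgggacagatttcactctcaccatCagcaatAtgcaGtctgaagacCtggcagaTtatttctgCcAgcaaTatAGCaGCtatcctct
Igkv6-15: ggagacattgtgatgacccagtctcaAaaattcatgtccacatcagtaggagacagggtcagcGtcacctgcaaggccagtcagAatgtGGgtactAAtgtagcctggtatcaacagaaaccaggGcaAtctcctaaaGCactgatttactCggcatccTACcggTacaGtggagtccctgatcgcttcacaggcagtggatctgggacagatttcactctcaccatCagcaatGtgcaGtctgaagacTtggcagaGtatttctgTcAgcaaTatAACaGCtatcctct
Igkv6-23: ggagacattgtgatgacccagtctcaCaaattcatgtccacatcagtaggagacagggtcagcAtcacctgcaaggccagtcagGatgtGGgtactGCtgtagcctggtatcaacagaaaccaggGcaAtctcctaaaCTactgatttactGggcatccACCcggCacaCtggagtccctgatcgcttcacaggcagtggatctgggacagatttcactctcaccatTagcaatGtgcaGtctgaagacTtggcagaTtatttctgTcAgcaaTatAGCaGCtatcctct
Igkv6-14: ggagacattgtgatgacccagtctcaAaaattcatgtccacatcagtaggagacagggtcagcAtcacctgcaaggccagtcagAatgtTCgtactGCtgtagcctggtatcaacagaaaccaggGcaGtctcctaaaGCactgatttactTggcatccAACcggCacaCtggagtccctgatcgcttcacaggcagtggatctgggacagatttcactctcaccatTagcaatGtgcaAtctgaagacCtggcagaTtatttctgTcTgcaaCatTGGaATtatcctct

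These 6 cells also differed from the 20 Igkv3-4 cells in the lambda V gene Iglv3. Iglv3 had 166 to 961 UMIs in each of the 6 cells, with a median of 618, against 0 to 14 in the 20 cells, with a median of 4.5. The Iglv3 ranges do not overlap, but those of Iglv1 do. Iglv1 had 89 to 246 UMIs in the 6 cells (median 138.5) and 6 to 737 in the 20 (median 90.5). V segments had a lower median share of all UMIs in the 6 cells (47.7%) than in the 20 (68.2%). The ranges of that share overlap, at 31.6 to 55.7% and 41.4 to 83.0%. All are cells of 1 library, so no test was made. In the 20 Igkv3-4 cells, the relative Igkv3-2 reached 1.05 to 9.76% of the kappa V UMIs and Igkv3-3 at most 0.352%, and Igkv3-4 shares 265 and 271 of 290 bases with them.

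The remaining 9 plasma cells of library 3 had 9 different pairs. Their leading heavy genes were Ighv1-9, Ighv1-18, Ighv1-22, Ighv1-64, Ighv1-81, Ighv1-82, Ighv2-2, Ighv3-6 and Ighv5-17, each in 1 cell. Among kappa genes, Igkv10-96 led 2 of these cells, with Ighv1-64 and with Ighv1-9, and Igkv8-21 led another 2, with Ighv1-22 and with Ighv5-17. The cell with Ighv1-82 and Igkv12-44 was the smallest, at 1953 UMIs in all, with Ighm, the constant gene of IgM, as its leading heavy constant gene. Every plasma cell of library 3 had at least 99.0% of its heavy V UMIs in 1 gene.

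Library 2 had another leading pair. Ighv5-4 (chr12:113597446-113597977) with Igkv8-24 (chr6:70216858-70217421) led 8 of its 12 plasma cells, a share of 66.7% (34.9 to 90.1%). Ighv5-4 gave 9 to 61 UMIs in these cells, with a median of 34.5, and Igkv8-24 gave 7 to 133 UMIs, with a median of 52. No other heavy V gene was seen in them. The leading heavy constant gene was Igha in 4 of the 8, Ighg2c in 3 and Ighg2b in 1, so this pair too was found with constant genes of both IgG and IgA. Igkv6-25 accompanied Igkv8-24 in all 8 cells, at 6.45 to 33.3% of their kappa V UMIs, although only 221 of 290 bases of Igkv8-24 and Igkv6-25 are identical. Of the other 4 cells, 1 had Ighv2-2 with no kappa V gene and 3 had neither a heavy nor a kappa V gene listed above 0, with 0, 15 and 82 UMIs of Iglv1. Only 8 members are above 0 in this library.

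In library 1, Ighv1-80 (chr12:115912344-115912776) led 4 of 7 plasma cells, with 2 to 124 UMIs. Igkv4-59 was the leading kappa gene in 2 of these 4, with 8 and 10 UMIs, one cell led by Ighg2b and the other by Igha. Igkv12-44 was the leading kappa gene in another, and the fourth had fewer than 2 UMIs of any kappa V gene. The remaining 3 cells paired Ighv1-42 with Igkv10-96, Ighv3-6 with Igkv1-132 and Ighv9-1 with Igkv12-44. Ighv1-80 was listed at 0 in plasma cells of libraries 2 and 3, and Ighv5-4 at 0 in plasma cells of libraries 1 and 3. No leading heavy and kappa pair occurred in plasma cells of more than 1 library. Only 66 and 8 members were above 0 in libraries 1 and 2, so few pairs could have recurred. The lack of overlap therefore says little about V gene use.

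**Figure D3:**
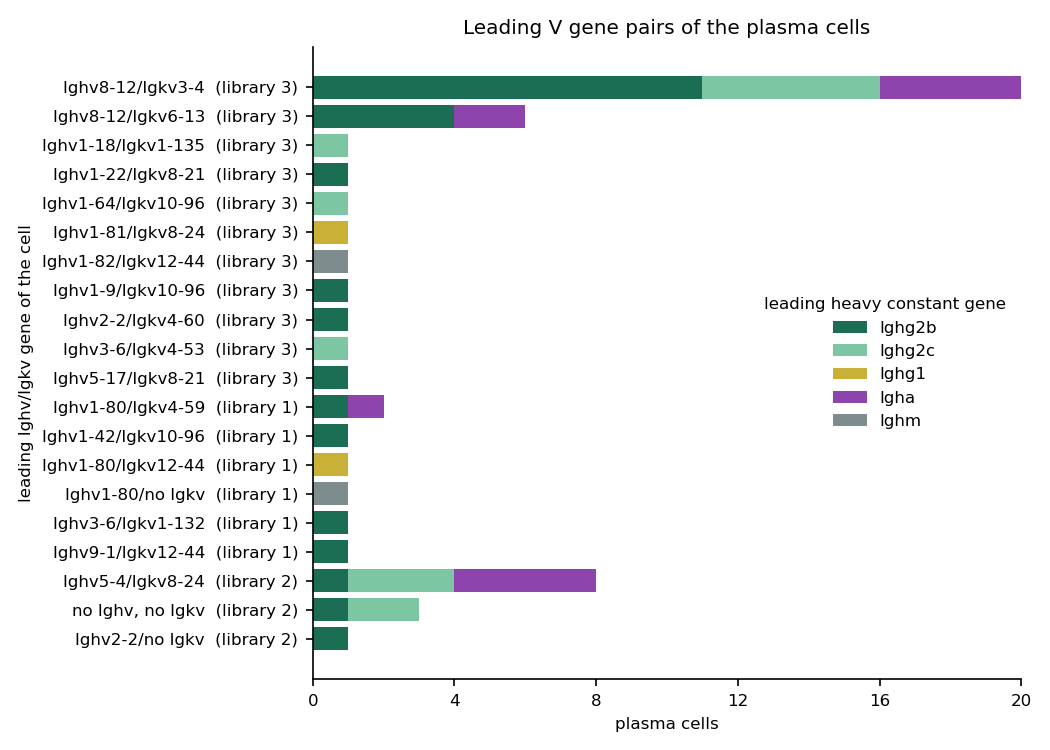
Number of plasma cells with each pair of leading Ighv and Igkv genes, by library, library 3 at the top. Colours give the leading heavy constant gene. Ighv8-12 with Igkv3-4 leads 20 of 35 cells of library 3 and Ighv5-4 with Igkv8-24 leads 8 of 12 cells of library 2, each with 3 heavy constant genes.

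Lambda V RNA accompanied kappa in nearly all plasma cells. Iglv1 (chr16:19085017-19085500) had at least 1 UMI in 34 of 35 plasma cells of library 3, 6 of 7 of library 1 and 11 of 12 of library 2. Its median was 105, 8 and 15 UMIs per cell, and its maximum was 951, 67 and 290. In library 2, where only 8 members were above 0, Iglv1 made 56.6% of all light-chain V UMIs of the plasma cells. Yet Igkc exceeded the summed lambda constant genes Iglc1, Iglc2 and Iglc3 in all 35, 7 and 12 cells. Iglv2 gave 11 UMIs in plasma cells of library 3 and was listed at 0 in those of libraries 1 and 2.

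B cells used the V segments broadly. A V gene was called for a chain of a cell where it had at least 2 UMIs and at least 60% of the V UMIs of that chain. In library 3, 363 of 415 B cells had a heavy call and 331 a light-chain call, and 97.1% had at least 1 of the 2. The same rule gave a call to 19.8% of the 1222 CD4 T cells of library 3, so a call alone does not show that a cell expressed the gene. In libraries 1 and 2 only 3.18% and 1.12% of B cells had a call. The heavy calls of library 3 fell on 60 genes and the light calls on 53. The probability that 2 cells of the class carry the same V call was 54.6% for heavy and 50.8% for light chains in plasma cells of library 3, against 2.44% and 3.14% in B cells. The plasma values rest on 35 heavy but only 28 light calls. The 6 cells led by Igkv6-13 had no light call and do not enter, which raises the light value. It was 2.90% and 3.56% in B cells of library 1, from 24 heavy and 23 light calls.

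By the equal-weight mean over libraries, the leading heavy V genes of B cells were Ighv2-2, Ighv1-64, Ighv1-26, Ighv5-16, Ighv7-3, Ighv1-9, Ighv3-6, Ighv2-3, Ighv5-4 and Ighv9-3. The place of Ighv2-2 rests on library 2, whose only call it was. Among the 363 heavy calls of library 3, Ighv3-6 had 23, Ighv1-64 and Ighv1-26 had 19 each, Ighv2-2 had 17 and Ighv5-4 had 13, with 1, 2, 2, 1 and 1 calls among the 24 of library 1. Ighv9-3 had 11 calls, Ighv7-3 and Ighv1-9 had 8 each and Ighv2-3 had 6 in library 3. Ighv3-6 and Ighv1-64 differ by 4 cells of 363, which is within counting error. The leading gene thus held 6.34% of the heavy calls of B cells, whereas Ighv8-12 held 74.3% of those of plasma cells in the same library.

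Among heavy V families, the largest held the most calls. The 32 genes of Ighv1, the largest mouse heavy V family, held 178 of 363 heavy calls (49.0%), the 8 genes of Ighv2 held 49, the 9 genes of Ighv5 held 39 and the 4 genes of Ighv3 held 26. Among kappa families this was not so: Igkv4, the largest with 21 genes, held 25 of 324 calls (7.72%), whereas the 11 genes of Igkv1 held 66 and the 6 genes of Igkv12 held 47. Calls came from the whole locus. With the heavy V genes divided in order of distance from Ighm, the 23 nearest held 104 calls, the middle 23 held 134 and the farthest 25 held 125. For kappa, the 28 genes nearest to Igkc held 107 of 324 calls, the middle 28 held 82 and the farthest 29 held 135.

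By the same mean, over libraries 1 and 3, the leading kappa genes were Igkv14-126, Igkv5-45, Igkv6-15, Igkv8-24, Igkv10-96, Igkv8-21, Igkv9-124 and Igkv12-46. Igkv14-126 owes its place to 3 of 23 calls in library 1, against 1 of 324 in library 3. In library 3, Igkv12-46 had the most kappa calls, 32 of 324 (9.88%), and Igkv10-96 had 21, Igkv5-45 had 10, Igkv6-15 and Igkv8-24 had 9 each, Igkv8-21 had 6 and Igkv9-124 had 5. Igkv12-46 had no call in library 1. Across genes with UMIs in both libraries, log2 of B cell UMIs plus 1 correlated between libraries 1 and 3 with Pearson's r of 0.49 over 33 Ighv genes and 0.46 over 28 Igkv genes. These genes share their library and capture, are not independent, and the correlations are descriptions.

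**Figure D4:**
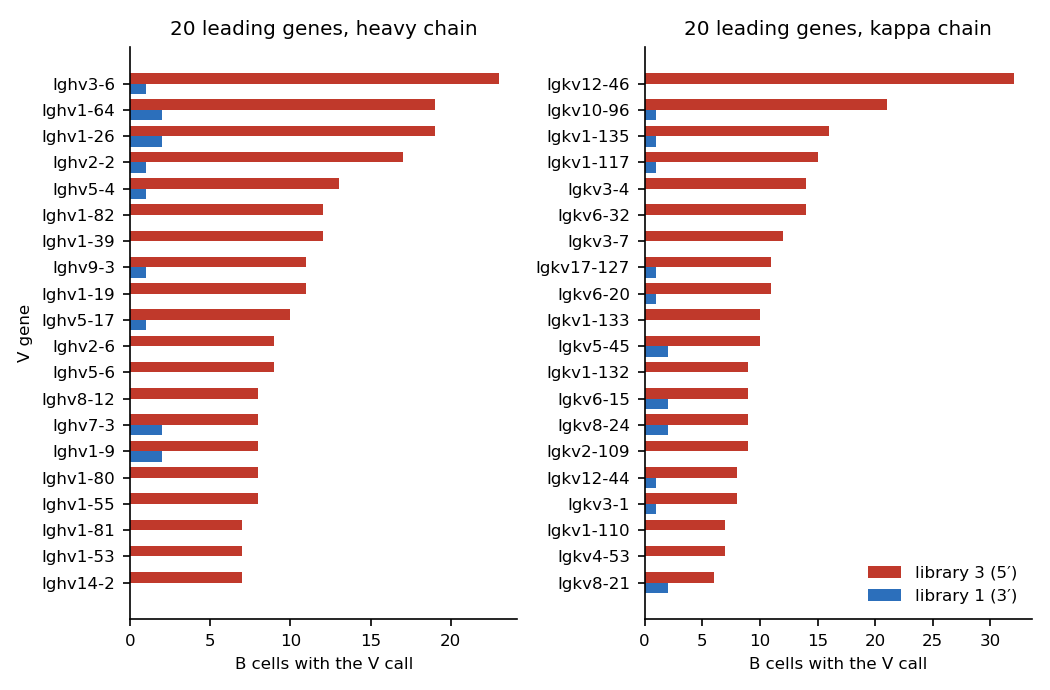
Number of B cells with each V call for the 20 heavy (left) and 20 kappa (right) V genes with most calls in library 3, in library 3 (5′) and library 1 (3′). Calls in library 3 decline gradually from 23 for Ighv3-6 and 32 for Igkv12-46, and no gene of library 1 exceeds 3 calls.

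Lambda V genes were a small part of B cell light chains. When the lambda locus was called by itself in B cells of library 3, Iglv1 had 12 calls, Iglv3 had 11 and Iglv2 had 6. Among the 331 calls over both light chains together, 17 (5.14%) were lambda. The lambda constant genes made 36.0% of the light constant UMIs in these 17 cells, against 35.6% in the 314 cells with a kappa call, and the median of the summed Iglc UMIs was 3 in each. Igkc had a median of 1 UMI in the lambda-called cells and 3 in the kappa-called cells. The Iglc sum exceeded Igkc in 9 of 17 lambda-called cells and in 123 of 314 kappa-called cells. No test was made between these cells of 1 library.

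In B cells of library 3, pairs of heavy and light calls were mostly unique. The 291 B cells with both calls had 253 pairs, of which 225 occurred in 1 cell. The most frequent were Ighv2-6 with Igkv4-81 and Ighv3-6 with Igkv1-135, in 4 cells each. Another kappa V gene with at least 2 UMIs and at least 20% of the kappa V UMIs was present in 23.5% of 374 B cells, and another heavy V gene in 7.49%. By V family, which adds near-identical genes together, the shares were 12.3% for kappa and 6.95% for heavy.

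V segment RNA was also counted in cells that should lack it, mainly in the 5′ library. CD4 T cells (the class Cd4) had 7.24, 0.0146 and 0 V UMIs per 10000 in libraries 3, 1 and 2, the last allowing up to 0.0100 (3 UMIs). B cells exceeded them 12.3-fold in library 3, 66.0-fold in library 1 and at least 14.6-fold in library 2. At least 1 V UMI was found in 99.5% of B cells of library 3 (median 4198 UMIs per cell), against 54.7% of Cd4 cells (median 1920.5). After thinning each cell to 1000 UMIs, without 29 B cells and 343 Cd4 cells under that depth, the shares were 97.9% of B cells and 35.6% of Cd4 cells. In libraries 1 and 2, 24.3% and 6.74% of B cells had a V UMI, against 0.392% and 0% of Cd4 cells. The Cd4 values are given as the level against which V detection in B cells is read, and their source, such as free RNA in droplets, was not tested.

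The makeup of V UMIs in these other classes was unlike that of B cells. The 2824 cells of library 3 that are neither plasma nor B cells held 5667 V UMIs, and 5 genes gave 89.2% of them: Igkv3-4 (49.3%), Ighv8-12 (16.4%), Igkv12-44 (14.5%), Ighv2-2 (4.68%) and Ighv1-82 (4.20%). The same 5 genes made 71.3% of the V UMIs of plasma cells and 12.3% of those of B cells. Igkv3-4 and Ighv8-12 led in plasma cells as well, at 46.5% and 22.8% of V UMIs. Igkv12-44 and Ighv1-82, however, had only 168 and 244 UMIs in all 35 plasma cells (0.0279% and 0.0406%), nearly all in the small cell described above, yet 824 and 238 UMIs in the other classes. Igkv12-44 was seen in 20.5% of those 2824 cells and in no more than 6 UMIs in any of them. The ratio of Igkv12-44 to Ighv1-82 was 3.05 in B cells and 3.23, 3.36 and 3.33 in Cd4, Cd8 and Treg cells, against 0.689 in plasma cells. In the classes with fewer of these UMIs it ranged wider, with 6.17 in macrophages, 4.20 in gdT/NK/NKT cells, 3.14 in Mixed cells and 2.75 in cDC, and pDC had 15 UMIs of Igkv12-44 and 3 of Ighv1-82. Igkv6-13 behaved otherwise: it had 15989 UMIs in plasma cells of library 3, yet 40 in B cells and 1 in Cd4 cells.

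**Figure D5:**
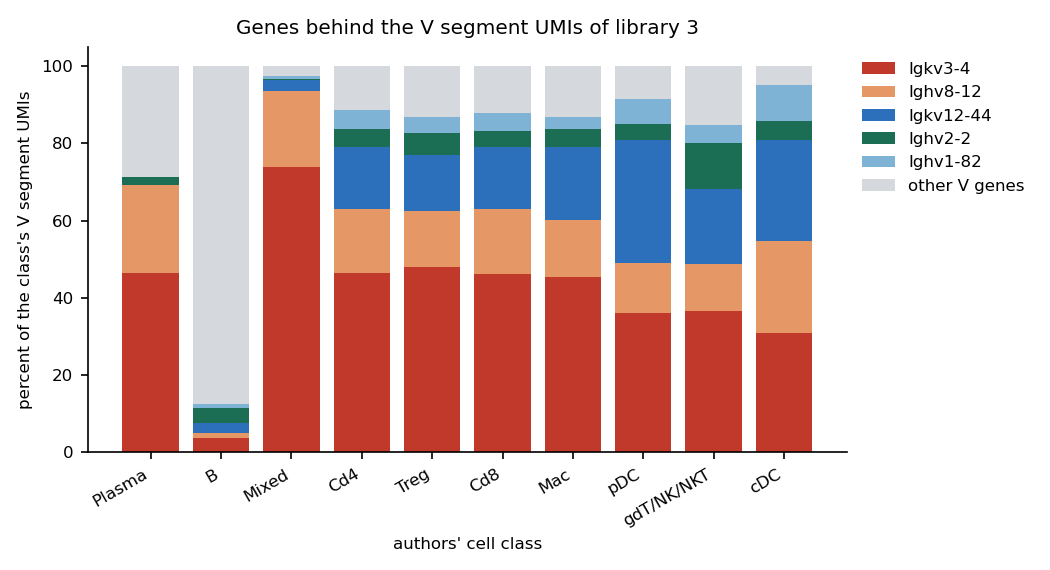
Percent of the V segment UMIs of each cell class in library 3 (5′) that came from the 5 V genes leading in the classes other than plasma and B cells, and from all other V genes. Other V genes give 87.7% in B cells, 28.7% in plasma cells and 2.44 to 15.2% in the other classes.

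Levels of the leading plasma genes in B cells stood close to those in the other classes. Igkv3-4 had 3.27 UMIs per 10000 in B cells of library 3, against 2.54 in the classes other than plasma and B cells, and Ighv8-12 had 1.07 in B cells, against 0.845 in those classes. At least 1 UMI of Igkv3-4 was found in 30.6% of B cells and 29.5% of Cd4 cells, and at least 1 UMI of Ighv8-12 in 19.5% of B cells and 15.5% of Cd4 cells. Calls numbered 14 of Igkv3-4 and 8 of Ighv8-12 in B cells, against 146 and 59 in Cd4 cells, in which other V RNA was scarce. The highest B cell had 64 UMIs of Igkv3-4 and the highest had 37 of Ighv8-12, against 25 and 14 in the highest Cd4 cells. Whether a given B cell expressed these genes was not tested. Single cells also weigh on class values. One cell of the class Mixed had 656 V UMIs, with 511 of Igkv3-4 and 137 of Ighv8-12, and was not called a doublet. With it the class had 27.7 V UMIs per 10000, the highest of the other classes, and without it 5.57. One B cell with 868 UMIs in all held 458 V UMIs, 326 of them from Ighv2-2. All B cells of library 3 had 633 Ighv2-2 UMIs, of which 307 remain without that cell.

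V genes were then tested across libraries on UMIs summed per class and library, with edgeR's quasi-likelihood test, the library as a block and Benjamini-Hochberg adjustment over all tested genes. Members with UMIs in too few of these sums did not pass the filter, so the counts of tested members support nothing about the 159. B cells were set against the mean of the 7 other classes that had 20 or more cells in each library. Here 7 members were tested and 6 were higher in B cells, against a background of 20.8% of 10895 genes higher and 16.4% lower. These 7 are the members with the most UMIs in library 3 cells that are neither plasma nor B cells. They are thus not those highest in B cells: Igkv12-46 did not enter, with 4.96 UMIs per 10000 in B cells of library 3. Igkv1-135 was higher by 6.02 ± 0.22 (log2, SE; adjusted p = 9.94e-14), another gene of the Igkv1 family by 5.10 ± 0.34 (3.36e-07; 0.653 in DESeq2, where it was not called) and Ighv2-2 by 4.50 ± 0.19 (6.10e-16). The 4 others were smaller: Ighv1-82 at 2.20, Igkv12-44 at 2.08, Igkv3-4 at 0.71 and Ighv8-12 at 0.54, the last not called (adjusted p = 0.0814). That other Igkv1 gene, Igkv3-4 and Ighv8-12 were listed at 0 in all classes of libraries 1 and 2, so their values come from library 3 alone. Their p-values measure no spread of these genes among libraries. Without library 3, 0 members were called by edgeR and none of these 7 could be tested.

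For plasma cells against B cells, 9 members passed the filter and all 9 were higher in plasma cells. Over all 5621 genes tested, 15.1% were higher and 21.7% lower. B cells of libraries 1 and 2 held only 438 and 7 V UMIs, so few members could pass without plasma UMIs. The filter thus favoured members high in plasma cells, and 9 of 9 cannot be read against that background. With no filter on low counts, 158 members were tested, 49 were called higher and 38 lower, and the median log2 difference was -2.57. The leading heavy and kappa V genes of library 3 plasma cells did not pass, nor did the leading heavy V gene of library 2. Among the 9 members that passed, the 5 largest differences were those of Iglv1, Ighv3-6, Ighv1-81, Igkv10-96 and Igkv8-24. Iglv1 had 60.3, 13.6 and 29.8 UMIs per 10000 in plasma cells of libraries 3, 1 and 2, against 1.66, 0.0242 and 0 in B cells, and differed by 8.71 ± 0.37 (log2, SE; adjusted p = 5.23e-115). Its plasma values lay above its B cell values in each library. Ighv3-6 had 96.1, 9.39 and 0 in plasma cells, against 1.47, 0.0396 and 0 in B cells, and differed by 8.21. Igkv10-96 had 202, 3.33 and 0 in plasma cells, against 2.64, 0.0176 and 0.0418 in B cells, and differed by 7.92. Igkv8-24 had 58.0, 0 and 17.6 in plasma cells, against 1.19, 0.0154 and 0.0209 in B cells, and differed by 7.56. Each of these last 3 genes was listed at 0 in the plasma cells of 1 library. Ighv1-81 had 44.3, 0.303 and 0 in plasma cells, against 0.450, 0.00880 and 0 in B cells, and differed by 8.09.

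Iglv3 had 39.4, 1.31 and 0.629 UMIs per 10000 in plasma cells of libraries 3, 1 and 2, against 0.860, 0.0396 and 0.0209 in B cells, and differed by 6.83. Of the 9 members, Iglv1 and Iglv3 could also be tested without library 3, and both were higher there. Plasma sums of V genes rest on 1 or a few cells, and this fit gave all genes 1 shared spread. With a spread for each gene (robust fit, added after seeing the data), only Ighv3-6, Ighv1-81 and Iglv3 were called, and Iglv1 had an adjusted p of 0.0685. The sizes above rest in part on single cells: 9493 of the Ighv3-6 UMIs in library 3 plasma cells came from 1 cell. Fitted values of genes at 0 in B cells of a library depend on the fit's prior count.

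The partners of V segments divided between the classes. Of 13 constant genes, 10 were tested and 8 were higher and 1 lower in plasma cells than in B cells, against 15.1% higher and 21.7% lower over all genes tested. The plasma calls of this list and those below come from the fit with 1 shared spread, and no robust result is given for them. Ighg1 was called higher, yet had 2.10, 133 and 0 UMIs per 10000 in plasma cells of libraries 3, 1 and 2, against 0.416, 0.603 and 2.36 in B cells. Igha averaged 236 ± 198 UMIs per 10000 in plasma cells and 0.902 ± 0.852 in B cells (SD, n = 3 libraries), a log2 difference of 9.14. Ighg2c and Ighg2b, constant genes of IgG subclasses, differed by 8.79 and 8.02. Ighd, the constant gene of IgD on naive B cells, had no UMI in plasma cells, against 3080 UMIs in B cells. Ighm did not pass the test: it averaged 8.67 ± 13.8 in plasma cells and 8.62 ± 5.63 in B cells. The near-equal means hide different directions. Ighm had 1.47, 24.5 and 0 in plasma cells of libraries 3, 1 and 2, against 4.77, 15.1 and 6.01 in B cells. In library 1, 1 plasma cell led by Ighm held 189 Ighm UMIs. Unlike V segments, Igkc, Ighg2b and Igha were higher in plasma cells of both 3′ libraries than in those of library 3. This did not hold for every constant gene: Ighg2c had 59.9, 3.84 and 278 UMIs per 10000 in plasma cells of libraries 3, 1 and 2.

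Of 22 genes for immunoglobulin transcription and assembly, 19 were tested and 9 were higher and 7 lower in plasma cells, against the same 15.1% and 21.7%. These directions come from edgeR's normalized values and can differ from UMIs per 10000. Vpreb3 was called higher by 1.03 (log2), yet averaged 1.29 UMIs per 10000 in plasma cells and 1.61 in B cells. Pou2af1 was called higher by 1.47, yet lay below its B cell level per 10000 in libraries 2 and 3. Those higher include Jchain, which joins IgA and IgM subunits (329.7 ± 147 UMIs per 10000 in plasma cells and 1.33 ± 1.59 in B cells, SD, n = 3), the secretory regulator Xbp1 (10.1 ± 4.18 in plasma cells and 0.594 ± 0.352 in B cells), the antibody-folding factor Mzb1 (59.8 ± 17.0 in plasma cells and 5.42 ± 1.45 in B cells) and Ell2, which favours the secreted form of the heavy chain (1.34 ± 0.347 in plasma cells and 0.562 ± 0.110 in B cells). Those lower include the B cell identity factors Ebf1 (0.154 ± 0.136 in plasma cells and 11.2 ± 1.54 in B cells) and Pax5 (0.0337 ± 0.0583 in plasma cells and 1.33 ± 0.976 in B cells). In plasma cells against B cells, the median log2 difference was 0.54 over the 19 tested genes of this list, 3.71 over the 10 constant genes and -0.32 over all genes tested. In B cells against the other classes, 15 of 20 tested genes of this list were higher and 2 lower, and 10 of 10 tested constant genes were higher, against 20.8% higher and 16.4% lower over all genes tested. The medians there were 2.78 for this list, 6.25 for constant genes and 0.03 over all genes tested.

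Genes of V(D)J rearrangement and somatic mutation formed the last list. Of 12 such genes, 10 were measured. Dclre1c, the nuclease Artemis that opens rearrangement ends, was higher in B cells than in the other classes by 1.03 ± 0.23 (log2, SE; edgeR adjusted p = 0.000932) and lower in plasma cells than in B cells by a log2 difference of -2.98 (adjusted p = 0.00251, with 2 UMIs in plasma cells). It was the only gene of this list called in either test, as 1 of 6 tested in B cells, where 20.8% of all genes were higher, and 1 of 3 tested in plasma cells, where 21.7% were lower. Such counts are near the share over all genes and are no result about the list. Dntt, which adds bases at V(D)J junctions, gave 0 UMIs in plasma cells, against 2 in B cells.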

How the data were processed

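The deposited table holds raw UMI counts (Cell Ranger 5.0.1, Seurat 4.0 and mm10 are named in the submitters' processing notes, without their roles) and the authors' cell table gives each cell's library, class and total count. All deposited cells were kept. The members and gene lists were chosen with earlier results of these data known. Named V genes are the 10 leading Ighv, 8 leading Igkv and all Iglv genes by the mean share of B cell calls over libraries, V genes called in at least 2 plasma cells of a library, and the 5 largest rises and falls among members called in plasma against B cells (no member fell). UMIs were summed per class and library and tested with edgeR 4.0.16 (TMM, filterByExpr, quasi-likelihood test) at an adjusted p under 0.05. The library, which holds both classes from the same nerves, was the block: deviations of plasma and B sums from their class means correlated at 0.429, 0.413 and 0.618 in libraries 1, 2 and 3 over 5621 genes. The labels name no separate animals, so p-values reflect the spread among 3 libraries, which may be technical. For members at 0 in all of libraries 1 and 2, they do not reflect even that, since all values come from library 3. Alternatives used DESeq2 1.42.0, limma 3.58.1 and scrublet in scanpy 1.11.5, which called 75, 8 and 1 doublets in libraries 1, 2 and 3. With 1 in 3274 cells, the caller did not work in library 3. The fits were also run on counts simulated with 1 common spread. Plasma V sums are unlike these, since they rest on 1 or a few cells, so the simulation is no check of the V gene calls. Sequences and positions come from GENCODE M21. One gene of the rearrangement and mutation list is not reported here.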

Additional observations from a re-analysis of the deposited data

How the results depend on the processing

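Counts of called members depended on the filter and on single libraries. In B cells against the other classes, 6 members were called; 134 were called with no filter on low counts and 3 with no replicate block, and 0 to 8 when a library was left out, the 0 being without library 3. In plasma against B cells, 9 were called; 87 were called with no filter (49 higher and 38 lower), 5 with no replicate block, 3 with a robust spread per gene, and 2 to 36 when a library was left out (25 without library 1, 36 without library 2, 2 without library 3). DESeq2 called 4 and 8: Igkv3-4 (adjusted p = 0.967) and the other Igkv1 gene (0.653) lost their calls in B cells, and Igkv12-44 (0.295) in plasma cells. Igkv3-4 also lost its call in limma-voom (adjusted p = 0.325). The robust fits, limma-voom, V families and the removal of 5 V genes were chosen after seeing the data. The mean over libraries of V UMIs per 10000 in plasma cells was 2076.5, and 6059.9 with immunoglobulin genes left out of the denominator. The probability that 2 B cells share a heavy V gene, 2.67% over libraries, became 35.3% with calls at 1 UMI (3.51% in library 1, 2.46% in library 3 and 100% in library 2) and 1.23% at 3 UMIs; for light chains, 3.35% became 8.05% at 1 UMI and 3.64% without the 5 V genes of the other classes. Within library 3 the heavy value was 2.44 to 2.53% and the light value 3.09 to 3.39% in these settings. The lambda share of light calls, 2.57%, became 15.0% at 1 UMI. The ratio of heavy to light V UMIs in B cells, 0.683, became 1.07 when cells with a call were counted. Library 3 sets the mean V levels and call shares over libraries: without it, V UMIs per 10000 were 68.9 in plasma cells and 0.555 in B cells, and 2.15% of B cells had a call. With each cell thinned to 1000 UMIs, 86.5% of B cells of library 3 kept a call. Of all alternative values, 58 were rated the same as the main value, 7 moved, 4 stronger and 5 weaker. A count of called members was rated the same if it stayed within a set fold of the main count, whichever members were called. The share of the leading heavy V gene of plasma cells was judged by its counting interval. Other values were rated the same if they stayed within the spread between libraries, which is wide here because it spans both chemistries. V UMIs limit libraries 1 and 2, where B cells had 438 and 7 of them, although all genes together gave 1778796 UMIs in B cells of library 3, against 4544649 in library 1.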
